A study of Mus musculus with 9 samples.

Results

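The microRNAs described here are miR-15a, miR-15b, miR-16 and miR-195, which form the miR-15/16 family, and miR-103 and miR-107, a closely related pair. They were chosen by name alone, and any copy of these 6 microRNAs counted. Of the 206 probes on the array 6 met this rule: miR15a, miR15b, miR16-1, miR195, miR103-1 and miR107. The study measured mature microRNAs of mouse embryonic stem (ES) cells on 9 two-colour arrays, each setting RNA from one of the groups against wild-type V6.5 ES cell RNA in the second channel. The groups were V6.5 ES cells with a heterozygous DGCR8 knockout (3 arrays, RNA from 2 independent batches), 2 independent homozygous DGCR8 knockout ES lines (2 arrays each, duplicate hybridisations) and irradiated mouse embryonic fibroblasts used as feeder cells (2 arrays). The ES cells had been grown on such feeders and passaged off them before RNA extraction. In every group replicate 2 had the dyes exchanged, with its own RNA in channel 1. No agent, time or animal age is given for any group, and the wild-type cells are present only as the reference channel.

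DGCR8 binds primary microRNA transcripts and positions the nuclease Drosha, which cuts out the hairpin from which the mature microRNA is made. A microRNA finds its targets mainly through its seed, bases 2 to 8 from the 5′ end. MiR-15/16 family members are known to restrain the cell cycle by repressing G1 cyclins and their kinases, and miR-15a and miR-16 also repress the survival factor BCL2. MiR-103 and miR-107 are known in mice for lowering insulin sensitivity and lie in introns of pantothenate kinase genes, whose products start coenzyme A synthesis.

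The mature sequences show why the probes are treated together and where they could be confused with each other. They are the RefSeq mouse sequences (GRCm38.p6), 5′ to 3′, with the seed in capitals; the arm is the one that these names usually denote, since the probe names give none and probe sequences were not analysed here. All 6 probes matched a RefSeq microRNA gene.
miR-15a-5p: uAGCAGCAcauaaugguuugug
miR-15b-5p: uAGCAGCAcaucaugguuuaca
miR-16-5p: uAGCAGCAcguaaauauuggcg
miR-195a-5p: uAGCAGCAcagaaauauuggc
miR-103-3p: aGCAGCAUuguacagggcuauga
miR-107-3p: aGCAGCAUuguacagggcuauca

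The 4 members of the miR-15/16 family share the seed AGCAGCA, which 10 of 1679 mature mouse sequences in the RefSeq table carry. MiR-103 and miR-107 share the seed GCAGCAU, which no other mature sequence in that table carries. Bases 1 to 7 of miR-103 and miR-107 are the seed letters of the miR-15/16 family, so both seeds hold the same letters shifted by 1 base. MiR-103-3p and miR-107-3p differ by a single substitution, G22C (position counted from the 5′ end, miR-103 base first). MiR-16-5p and miR-195a-5p differ by G10A and U11G over their 21 common positions, whereas miR-15a-5p and miR-15b-5p differ at 4 of 22 positions. Whether the probes tell such close sequences apart was not tested, so values of miR-103 and miR-107, and of miR-16 and miR-195, may share signal.

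The genes lie at separate places in the genome (mature sequence coordinates, RefSeq, GRCm38.p6). MiR-15a-5p is at chr14:61632075-61632096 on the minus strand, beside 1 of the 2 copies of miR-16-5p at chr14:61631936-61631957, and both lie within the extent of the long non-coding RNA gene Dleu2. MiR-15b-5p is at chr3:69009775-69009796 on the plus strand, beside the other copy of miR-16-5p at chr3:69009918-69009939, and both lie within the extent of Smc4, which encodes a condensin subunit. The miR-16 probe therefore reads a sequence made from both places. MiR-195a-5p is at chr11:70235062-70235082 on the plus strand, next to the gene of miR-497, and no other annotated gene spans it. MiR-103-3p comes from chr11:35782447-35782469 within Pank3 and from chr2:131288103-131288125 within Pank2, both on the plus strand, and miR-107-3p from chr19:34820700-34820722 on the minus strand within Pank1. These are positions inside gene extents; exons and introns were not read from the annotation used here.

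All values below are log2 ratios of own RNA over wild-type RNA, on the scale the authors set with positive control RNAs on the array. This direction is likely rather than stated, since the series text names wild type as the reference. A value of 0 is the wild-type level, and each step of 1 is a 2-fold change. These sizes rest on the deposited values being log10, which the values bear out on 1 array only; were they log2, the tests would be the same, but the mean knockout ratio would be -2.27 for miR-15b, -1.73 for miR-15a and a median of -1.80 over all 87. Arrays held values for 84 to 133 of the 206 probes, and 87 mouse probes had enough values to be tested, among them 5 of the 6 described here. MiR-195 had no value on either feeder array and was tested in a fit without the feeder group (90 probes). A ratio on whole cultures cannot tell fewer cells carrying a microRNA from less of it per cell. As a check of the labels, all 8 tested markers of ES cells (the miR-290 to miR-295 cluster) were lower in feeders (median -7.28), and the 4 tested of 11 listed fibroblast microRNAs were all higher (median 3.52). Whether a called difference is larger than the spread was judged by limma, with Benjamini-Hochberg adjusted p-values over all tested probes and a threshold of 0.05.

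In homozygous knockout cells all 6 microRNAs were between 54.2-fold and 187-fold below wild type, with ratios equal to 0.534% to 1.85% of the wild-type signal. MiR-15b had the lowest mean ratio of the 6 and miR-15a the highest. Signal over background is unknown, and the ES cell markers in feeders had ratios of -7.95 to -5.92, the range in which most members lay in the knockout. Whether the knockout ratios, and so the shares and the order of the members, are bounded by the lowest signal the arrays can measure was not tested. The comparison asks how far the maturation of these microRNAs depends on DGCR8.

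**Figure D1:**
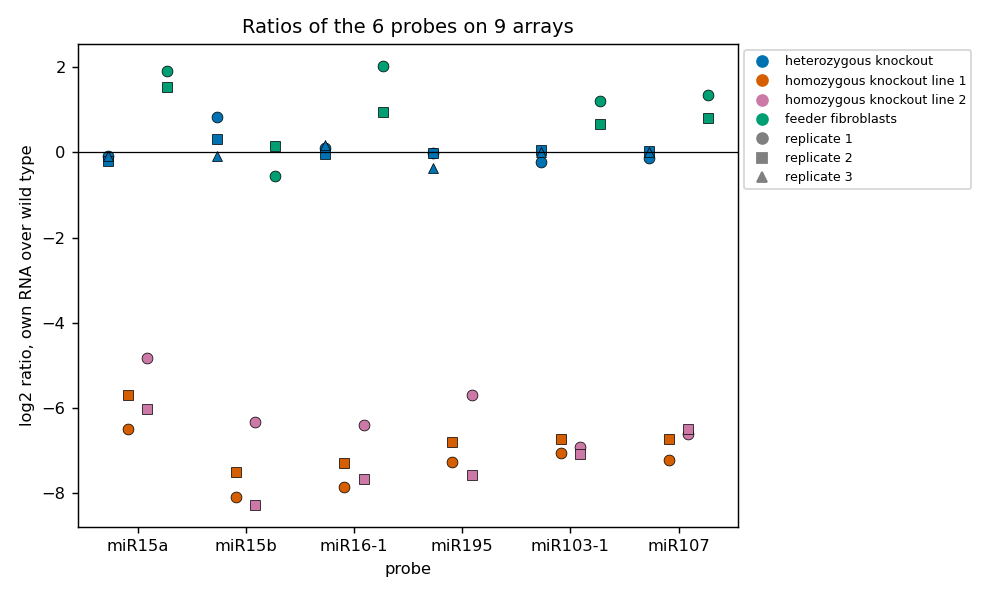
Log2 ratio of own RNA over wild-type RNA (vertical axis) for each of the 6 probes (horizontal axis); each point is 1 array, coloured by group, with the marker giving the replicate. All knockout points lie between -8.27 and -4.83, the heterozygous points between -0.35 and 0.83, and miR15b is the only probe with a feeder point below 0.

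MiR-15b, processed from the Smc4 locus, had ratios of -8.09 and -7.51 on the arrays of line 1 and of -6.33 and -8.27 on those of line 2. Replicate 1 of line 2 was the least reduced of the 4, and even there miR-15b stood at 1.24% of wild type. Its mean was -7.55 ± 0.35 (SD, n = 2 lines), a 187-fold reduction (limma adjusted p = 8.19e-07).

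MiR-16, which shares transcripts with both miR-15a and miR-15b, had -7.85 and -7.29 in line 1 and -6.40 and -7.68 in line 2. Again the highest value was on replicate 1 of line 2. The mean was -7.30 ± 0.38 (SD, n = 2 lines), a 158-fold reduction (limma adjusted p = 3.2e-07).

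MiR-15a, processed from the Dleu2 locus together with miR-16, had -6.49 and -5.70 in line 1 and -4.83 and -6.02 in line 2. Its mean of -5.76 ± 0.47 (SD, n = 2 lines) was a 54.2-fold reduction (limma adjusted p = 1.07e-06). On each of the 4 knockout arrays miR-15a had the highest ratio of the 6 probes. It lay above miR-15b by 1.60, 1.81, 1.51 and 2.25, and above miR-16 by 1.36, 1.59, 1.57 and 1.65, on the 2 arrays of line 1 and the 2 of line 2 in turn. The 2 line means of miR-15a, -6.09 and -5.42, did not overlap with those of any other member, the nearest being miR-107 in line 2 at -6.56. These differences between probes were not tested.

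MiR-195, the member of the miR-195/miR-497 cluster, had -7.26 and -6.80 in line 1 and -5.69 and -7.56 in line 2. Its mean was -6.83 ± 0.28 (SD, n = 2 lines), a 114-fold reduction (limma adjusted p = 3.64e-07, fit without the feeder group).

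MiR-103 had -7.06 and -6.73 in line 1 and -6.92 and -7.08 in line 2, the narrowest range of the 6. Its mean of -6.95 ± 0.07 (SD, n = 2 lines) was a 123-fold reduction (limma adjusted p = 2.78e-07). MiR-107 had -7.21, -6.73, -6.62 and -6.49 on the same arrays in turn, with a mean of -6.76 ± 0.29 or a 109-fold reduction (limma adjusted p = 3.2e-07). The 2 probes differed from each other by 0.58 at most and by a median of 0.14 over all 9 arrays.

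Loss in the knockout was general on this array, and the 5 tested members have to be read against it. Of the 87 microRNAs 89.7% were called lower and 2.3% higher, and 5 of 5 members were lower. In the fit without feeders 90% of 90 were lower and 2.22% higher, with all 6 members among the lower. The median ratio of the 5 was -6.95 and that of all 87 was -5.98. Counted from the lowest of the 87 means, miR-15b was 10th, between miR-20 (-7.58) and miR-130a (-7.51), and miR-16 was 17th. MiR-103 was 22nd and miR-107 was 30th, whereas miR-15a was 47th, between miR-150 (-5.78) and miR-130b (-5.75). From miR-15b upwards through miR-16, miR-103, miR-195 and miR-107, each member differed from the next by less than the larger of their SDs between lines, whereas miR-15a lay above miR-107 by more than either SD.

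**Figure D2:**
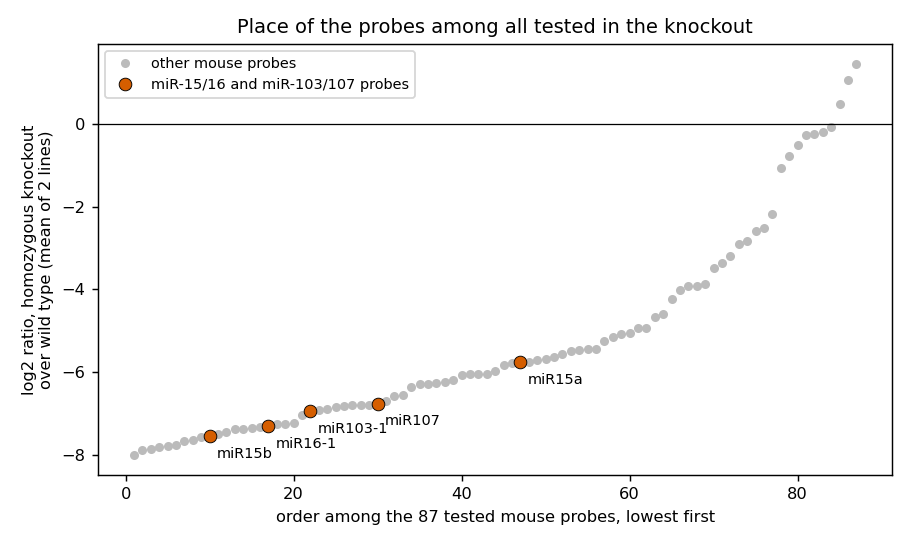
Mean log2 ratio of the homozygous knockout over wild type (vertical axis, mean of 2 lines) for the 87 tested mouse probes in order (horizontal axis); grey points are other probes and orange points the 5 tested members. MiR15b at -7.55, miR16-1 at -7.30, miR103-1 at -6.95 and miR107 at -6.76 lie below the median of -5.98, and miR15a at -5.76 lies just above it.

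Subtracting each array's own median leaves the differences between members on that array unchanged. It shows where each member stood against the typical microRNA. MiR-15a lay between -0.33 and 0.08 of the array median on the 4 knockout arrays, so it stood with the typical microRNA. MiR-15b lay between -2.33 and -1.42 of it, and miR-16 between -1.74 and -1.49. The ranges were -1.62 to -0.78 for miR-195, -2.01 to -0.90 for miR-103 and -1.71 to -0.56 for miR-107, all below the array medians. Centring the arrays in this way moved the median of the 87 knockout ratios by 5.64, and miR-15a, at -0.11, was then no longer called (limma adjusted p = 0.611), while miR-15b (-1.91), miR-16 (-1.66), miR-103 (-1.30) and miR-107 (-1.12) were still called lower.

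**Figure D3:**
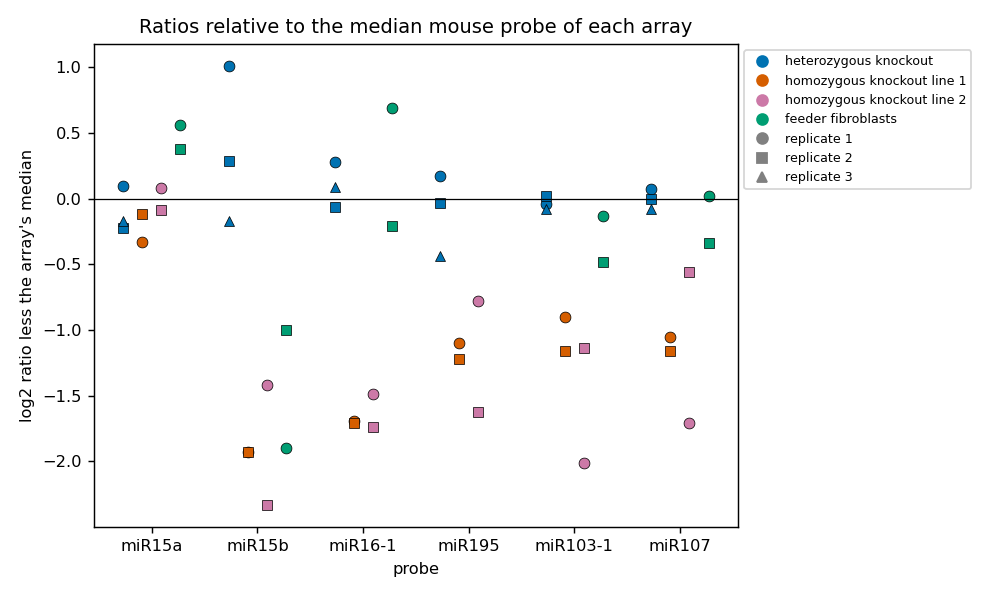
Log2 ratio less the median of the mouse probes on the same array (vertical axis) for each probe (horizontal axis), with arrays, groups and replicates marked as points of different colour and shape. On the 4 knockout arrays miR15a lies between -0.33 and 0.08, whereas miR15b and miR16-1 lie at -1.42 or lower.

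The 2 knockout lines were compared to ask whether both lines gave the same result. No member was called different between the lines (limma, 0 of 87 microRNAs called, 0% in either direction, with 13 of the 87 and none of the members at an unadjusted p under 0.05). The difference, line 2 less line 1, was 0.67 ± 0.53 (SE) for miR-15a, 0.53 ± 0.58 for miR-16, 0.49 ± 0.67 for miR-15b, 0.41 ± 0.45 for miR-107 and -0.10 ± 0.45 for miR-103. In the fit without feeders, in which 1.11% of 90 microRNAs were called lower and 2.22% higher in line 2, none of the 6 members was called, and miR-195 differed by 0.40 ± 0.60 (SE). This test rests on duplicate hybridisations, and differences of these sizes were not detectable against their spread.

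Within line 2 the duplicate arrays diverged for the miR-15/16 family. Replicate 1 less replicate 2 was 1.94 for miR-15b, 1.87 for miR-195, 1.28 for miR-16 and 1.20 for miR-15a, but 0.16 for miR-103 and -0.13 for miR-107. The median of this difference over 81 tested probes was 0.67. The arrays have opposite dyes, and dye and hybridisation cannot be told apart within a line. In line 1 the same difference ran from -0.80 to -0.33 over the 6 members, against a median of -0.13 over 80 probes. Leaving out replicate 1 of line 2 left all 5 tested members called lower in the knockout.

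In heterozygous cells none of the 6 microRNAs was called changed, and no microRNA was among all 87 (limma, 0% lower and 0% higher, with 7 of the 87 and none of the members at an unadjusted p under 0.05). The comparison addressed whether losing 1 copy of Dgcr8 lowers mature microRNAs. MiR-107 had -0.12, 0.03 and 0.01 on replicates 1 to 3, and miR-103 had -0.22, 0.05 and 0.01. MiR-15a had -0.09, -0.20 and -0.08, below 0 on each array. Its mean of -0.12 ± 0.07 (SD, n = 3 arrays) did not differ from 0 beyond the error of the fit (limma adjusted p = 0.887).

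MiR-16 had 0.10, -0.04 and 0.18, and miR-195 had -0.01, -0.00 and -0.35. MiR-15b was the most variable of the 6, with 0.83, 0.32 and -0.08. Its mean of 0.36 ± 0.45 (SD, n = 3 arrays) was 83rd of 87 from the lowest and was not called (limma adjusted p = 0.763). The 3 heterozygous arrays come from 2 batches of RNA, so at least 2 of them share a batch, which 2 is not stated, and their spread may be technical. All tests treat these arrays as 3 separate values and draw part of their error from them, so their p-values may be too small.

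When homozygous were compared with heterozygous arrays, so that the reference cancels, all 5 tested members were lower in the homozygous knockout, as were 90.8% of the 87, while 2.3% were higher. MiR-15b had the lowest difference of all 87 microRNAs, at -7.91 ± 0.36 (SE) or 240-fold (limma adjusted p = 3.01e-06). MiR-291-3p was next at -7.87, and the 2 are within their errors of each other. This first place includes the uncalled heterozygous mean of miR-15b, 0.36 ± 0.45 (SD), since over wild type miR-15b was 10th of 87. Without heterozygous replicate 1 its difference was -7.67. Of the other members, miR-16 was at -7.38 ± 0.27, miR-103 at -6.89 ± 0.24 and miR-107 at -6.74 ± 0.26. MiR-15a was again the least reduced, at -5.64 ± 0.29 or 49.8-fold (limma adjusted p = 5.15e-06), and it was 50th of 87. MiR-195 was at -6.70 ± 0.28 in the fit without feeders, in which 91.1% of 90 microRNAs were lower and 2.22% higher. After centring, miR-15a was at -0.02 and was not called, while the other 4 of the 5 were.

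On the deposited scale feeder fibroblasts carried more miR-15a, miR-16, miR-103 and miR-107 than wild-type ES cells, by 1.92-fold to 3.3-fold. MiR-15b was not called different on that scale. None of the 4 calls remained after centring, as described below. Feeders were profiled as a possible source of residual signal, since some of them may be carried over into ES cultures. Of the 5 members with feeder values 4 were called higher and 0 lower, where 36.8% of the 87 microRNAs were higher and 36.8% lower. The 87 had to have values on at least 2 heterozygous arrays. Over all mouse probes with a value, the median was 1.34 on feeder replicate 1 and 1.16 on replicate 2. The median of the 5 members was 1.36 and 0.81 on the same arrays. Nothing says that the 2 feeder arrays were separate cultures, and the fit used their mean as 1 value, with a spread borrowed from the other groups.

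MiR-15a had 1.91 and 1.53 on feeder replicates 1 and 2, and its mean of 1.72 ± 0.27 (SD, n = 2 arrays) was the highest of the 5 (3.3-fold, limma adjusted p = 0.00344). MiR-16 had 2.03 and 0.94, with a mean of 1.49 ± 0.77 (2.8-fold, limma adjusted p = 0.00509). MiR-107 had 1.36 and 0.81, with a mean of 1.09 ± 0.39 (2.12-fold, limma adjusted p = 0.0139). These 3 microRNAs and miR-103 were above 0 on both arrays.

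MiR-103 had 1.21 and 0.67, with a mean of 0.94 ± 0.38 (1.92-fold, limma adjusted p = 0.0183). Its call was lost without feeder replicate 1 (0.67, adjusted p = 0.0605), without heterozygous replicate 2 (0.94, adjusted p = 0.0603) and without replicate 2 of knockout line 2 (0.94, adjusted p = 0.0542). MiR-15b had -0.56 and 0.16, one on each side of 0, with a mean of -0.20 ± 0.51 (limma adjusted p = 0.674). It was lower than miR-15a by 2.47 and 1.37 and lower than miR-16 by 2.59 and 0.78 on replicates 1 and 2, differences that were not tested. MiR-195 was missing on both feeder arrays, and why those spots were left out is not stated.

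The feeder directions depend on the scale. Centring moved the median of all 87 feeder ratios by -1.19, from 0.15 to -1.04. MiR-103 (-0.31) and miR-107 (-0.16) then lay below 0, miR-15a (0.47) and miR-16 (0.24) stayed above 0, and none of these 4 was called. MiR-15b was then called lower (-1.45, limma adjusted p = 0.0288).

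The knockout cells held far less of each of the 5 members with feeder values than the feeders did. MiR-195 had no feeder value and could not be compared. With the reference cancelled, the difference of knockout less feeder was -8.79 ± 0.37 (SE) for miR-16, -7.89 ± 0.33 for miR-103, -7.85 ± 0.34 for miR-107, -7.48 ± 0.39 for miR-15a and -7.35 ± 0.48 for miR-15b. All 5 were called lower (limma adjusted p at most 2.58e-05), as were 75.9% of the 87, with 1.15% higher and a median of -4.92. The signal left in the knockout was 0.226% of that in feeders for miR-16, 0.421% for miR-103, 0.433% for miR-107, 0.56% for miR-15a and 0.613% for miR-15b. MiR-16 was thus 7th from the lowest of 87 and the other 4 members were 15th, 16th, 18th and 19th. The 4 tested fibroblast markers had a median of -4.32 in the knockout against wild type and of -7.85 against feeders, and their part in the signal left here was not tested. After centring, miR-16, miR-103 and miR-107 were still called lower than in feeders and miR-15a (-0.59) and miR-15b (-0.46) were not.

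**Figure D4:**
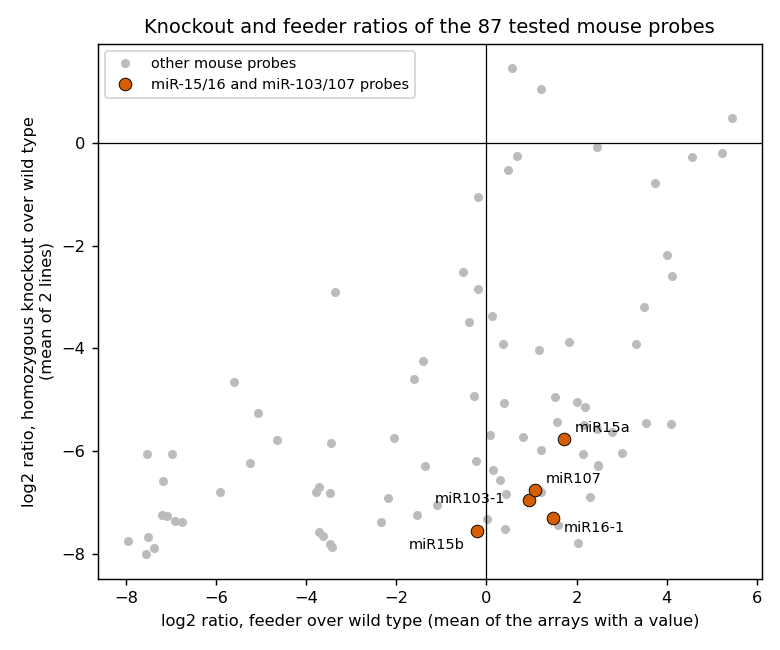
Mean log2 ratio over wild type in the homozygous knockout (vertical axis) and in feeder fibroblasts (horizontal axis) for the 87 tested mouse probes. Both axes share the wild-type reference, grey points are other probes and orange points the 5 tested members. The members lie between -7.55 and -5.76 in the knockout; in feeders miR15b lies at -0.20 and the other 4 between 0.94 and 1.72.

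Among themselves the probes were alike to different degrees. Likeness was measured as the root mean square difference in log2 ratio over the arrays where both probes had values, a description only, since all arrays share the wild-type reference. MiR-103 and miR-107 were each other's nearest probe (0.24 over 9 arrays, where the median over 83 candidates was 2.05 for miR-103). The next nearest to miR-103 were miR-337 (0.50, 8 arrays) and miR-130a (0.51, 9 arrays), and to miR-107 they were miR-337 (0.52) and miR-16 (0.55). MiR-195 and miR-16 were at 0.45 over 7 arrays, which made miR-16 the nearest to miR-195, followed by miR-409 (0.46) and miR-103 (0.53).

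The nearest probe to miR-16 was miR-127 (0.39, 9 arrays), ahead of miR-195 and miR-103 (0.52). MiR-15b was nearest to miR-130a (0.57, 9 arrays), then to miR-195 (0.65) and miR-411 (0.85, 7 arrays each). Distances to miR-195 leave out both feeder arrays, and the median over its 64 candidates was 0.98. They are therefore not comparable with distances over 9 arrays. MiR-16 was 0.97 from miR-15b over 9 arrays. The difference, miR-16 less miR-15b, was 2.59 and 0.78 on the feeder arrays and between -0.73 and 0.60 on the others. MiR-15a had no member among its nearest 3, which were miR-382 (0.35, 9 arrays), miR-101 (0.49, 8 arrays) and miR-30a-5p (0.53, 9 arrays). MiR-15a and miR-15b were 1.57 apart, which made miR-15b the 37th of 83 candidates for miR-15a. Thus, over the arrays each pair shared, the pair with the same number and 18 of 22 identical bases was the least alike of the 6. The pair with 22 of 23 identical bases was the most alike.

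Other carriers of the seed AGCAGCA were hardly measured. MiR-322, which is X-linked, had a value on feeder replicate 2 alone (3.29). The probe miR424, a name without a mouse gene in the RefSeq table, had -3.97 on replicate 2 of line 1 and 5.10 on feeder replicate 2. These single values allow no comparison. No probe named for miR-497, which also carries this seed, was on the array, nor one for miR-503, whose seed differs from it.

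For context, 3 lists of other microRNAs were counted. Of 22 probes on the array for microRNAs tied to the cell cycle 12 were tested, and 8 of these were lower in the knockout and 0 higher. Their median was -4.69 (all 87 at -5.98 with 89.7% lower and 2.3% higher). They ran from miR-106a (-7.86), which promotes proliferation, to a let-7f probe (0.48), which did not pass. The other tested let-7 probes were also near 0, let-7a at -0.19, let-7b at -0.27 and let-7e at -0.785. In feeders 5 of the 12 were lower and 6 higher (median 2.32, all 87 at 0.15 with 36.8% lower and 36.8% higher), with miR-20 lowest (-3.72) and let-7f highest (5.44). Of 11 listed microRNAs tied to lipid or glucose metabolism only 3 were tested, miR-27a (-5.63), miR-370 and miR-29b (-2.58), and all 3 were lower in the knockout, where 89.7% of all 87 were. MiR-27a and miR-29b were higher in feeders (median of the 3, 2.78), where 36.8% of all 87 were higher. Of 27 listed microRNAs within introns of protein-coding genes 7 were tested, and 6 of these were lower in the knockout (median -5.56), near the 89.7% and the median of -5.98 over all 87. The lowest was miR-93 (-6.91), and miR-126* was higher (1.06, limma adjusted p = 0.00854). None of these lists had a call in heterozygous cells (limma).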

How the data were processed

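Per the series text, the authors normalised the ratios on positive control RNAs; per the labels' protocols, gel-purified small RNA was tailed and hybridised with the NCode labelling system. The deposited values for 206 probes were taken as log10 ratios. No source states the base. For knockout line 1, replicate 2, each of the 90 lowest values is the log10 of a ratio with 4 decimals (by chance 3.84% would be). The same check found no such values beyond chance on the other arrays with low values (1 of 76, 2 of 68, 4 of 75, 0 of 12, 0 of 17 and 0 of 1), so for them log10 is assumed. Values were multiplied by 3.3219 to give log2; 3 spreadsheet errors and null cells were missing. Neither image software, background correction nor a spot filter is named, and precision is limited by how few arrays there are.

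The names of 195 of the 206 probes matched a mouse microRNA gene of the RefSeq table (GRCm38.p6). A probe was tested if at least 2 heterozygous arrays, each knockout line and at least 1 feeder array had a value (87 probes). limma 3.58.1 (R 4.3.3, statmod 1.5.0; lmFit and eBayes, tested on simulated data) was fitted to 6 values per probe: 3 heterozygous arrays, the mean of each line and the feeder mean, tested against 0 or against each other; wild type's own spread is left out. The lines were compared with all 9 arrays as single values. Alternatives were centring, single arrays, a random block, a replicate block, other filters on missing values, a fit without feeders, another log base and leaving out each array.

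The members, lists and tests were chosen with earlier results of these data known. Named were all members, the relatives miR-322, miR-424, miR-497 and miR-503 (the last with another seed), the 3 probes most like each member (values on at least 7 shared arrays), the neighbours in order, and the ends of each list.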

Additional observations from a re-analysis of the deposited data

How the results depend on the processing

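Of the members' values recomputed under the alternatives, 478 kept their side of the threshold, 9 lost a call with the same direction, 1 gained one and 2 called values reversed. Of the 478, 7 uncalled values changed sign, among them miR-15b in feeders (0.16 without feeder replicate 1) and miR-15b (-0.48) and miR-16 (-0.11) between the lines without replicate 1 of line 2. With the arrays as single values or a random block (estimated correlation -0.335), every count of called members that could be recomputed was as reported. Neither setting widens the error for duplicate hybridisations, so both tend to keep a call. Taking the deposited values as log2 cannot change a test and only makes every size smaller (median of the 5 members in the knockout -2.09). The 478 include values from these settings. Centring reduced the called members from 4 to 1 in feeders over wild type and from 5 to 3 in knockout over feeder, and turned miR-103 (-0.31) and miR-107 (-0.16) in feeders, as follows from the shift of the median. It also changed calls over all probes, from 78 lower and 2 higher to 33 and 25 in the knockout over wild type, from 81 calls to 50 (27 lower, 23 higher) over heterozygous cells, from 32 and 32 to 43 and 12 in feeders, and from 66 and 1 to 10 and 49 for knockout over feeder. Asking for at least 1 value in each group gave 1 call in heterozygous cells, asking for values on all 9 arrays gave 44 calls of 58 for knockout over feeder in place of 67 of 87, and the fit without feeders gave 3 calls between the lines, with no member called in heterozygous cells or between the lines. Leaving out 1 array, called members stayed at 5 in the 3 knockout comparisons and lay between 3 and 4 in feeders, and calls over all probes lay between 0 and 1 in heterozygous cells (1 without replicate 2 of line 1) and between 0 and 3 between the lines (2 without replicate 1 of line 2 or without feeder replicate 2, 3 without feeder replicate 1), the cause of which was not tested. With a replicate block, in which replicates 1 and 2 also differ in dye orientation, 80 microRNAs were called in the knockout over wild type and 65 in feeders, and no call of a member changed; deviations of arrays with the same number correlated at 0.046 to 0.391, so the number is not taken as a pairing. Signal over background is unknown here.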
